A study of Mus musculus with 15 samples.

Results

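Megakaryocyte and platelet genes were followed in TER119-positive cells of mouse fetal liver. The set was a list of 31 genes for platelet adhesion receptors, clotting proteins, agonist receptors, signalling proteins, granule and cytoskeletal components and the transcription factor Fli1, each read from the transcript cluster, the array's probe group for a gene, with the highest mean. Of these, 26 had a cluster of their own among the 23410 clusters tested. Gp1bb lay only on a cluster that also names another gene and was not used, and Gp1ba, Gp6, Selp and Ptgs1 were not analysed here. The list was set by gene name, with earlier results of these data known.

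Megakaryocytes are the large bone marrow and fetal liver cells that shed platelets. They share a progenitor with the erythroid lineage, and both lineages use the factors GATA1, TAL1 and NFE2, while the ETS factor FLI1 acts on the megakaryocyte side. Platelets adhere to von Willebrand factor and collagen, respond to thrombin and nucleotides through surface receptors, release granule chemokines and clotting proteins, and aggregate through a fibrinogen-binding integrin. KLF3 and KLF8 are related zinc finger repressors that bind CACCC-type DNA motifs.

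All 15 samples were of the FVB/NJ strain at E13.5, purified from fetal liver with magnetic beads against TER119, a surface antigen of maturing erythroid cells. The groups were 4 wild-type samples (WT), 4 with a gene trap in Klf8, labelled Klf8gt/gt (Klf8gt), 3 of the genotype Klf3-/- (Klf3KO) and 4 carrying both, Klf3-/- Klf8gt/gt (DKO), and replicates are named by the number in their title. The comparisons ask whether loss of either factor, or of both, goes with a change of these genes, and the interaction asks whether the trap's difference was another one on the Klf3-/- background. Litters were matched only in part, and neither the arrays that share one nor whether every array had its own embryo is labelled, so p-values measure only the spread between these samples. The Klf3 signal was 11.32 ± 0.14 (SD, n = 3) in arrays labelled Klf3KO and 11.37 ± 0.28 (n = 4) in DKO, against 10.27 ± 0.17 in WT and 10.27 ± 0.04 in Klf8gt. It was thus higher, not lower, in arrays labelled Klf3-/-. Whether the cluster rests on probes outside the deleted segment was not tested. Klf8 was dim in WT (5.36 ± 0.18) and Klf8gt (5.39 ± 0.09), below the array medians of 6.28 to 6.41, so the trap could not be read from it there. On the Klf3-/- background Klf8 was brighter, at 8.71 ± 0.26 in Klf3KO and 7.29 ± 0.55 in DKO, and every DKO array (6.85 to 8.04) lay below every Klf3KO array (8.42 to 8.89). The names WT, Klf8gt, Klf3KO and DKO below mean arrays carrying those labels.

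The erythroid label was read from 13 measured erythroid markers, whose mean log2 signal lay between 12.18 and 12.59 on every array. A list of 6 measured hepatocyte markers was bright too, with group means of 12.78 to 13.30. The erythroid level alone therefore does not measure the purity of the samples. Xist was high in 0 of 4 WT, 2 of 4 Klf8gt, 2 of 3 Klf3KO and 2 of 4 DKO arrays, so the WT arrays were all from males, and Klf8gt replicates 1 and 4 were both from females. Klf8gt replicate 1 and DKO replicates 1, 3 and 4 had the lowest quality weights that limma estimated, from 0.33 to 0.50, and the other arrays had 0.89 to 2.31. Of the 26 genes, 24 had group means above the array medians in every group. The other 2, Gng11 and P2ry12, lay below those medians in every group, and no fold is given for them. These are bulk samples, in which more cells of a type and more RNA per cell cannot be told apart.

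The start sites of 4 genes are shown because they stand for the behaviours below. Pf4 and Gp5 moved with most others from array to array, and Tubb1 followed none of them. Gp9 had the lowest adjusted p between DKO and Klf8gt in the fit without DKO replicate 4. Promoter sequences of the 250 bases before the annotated start come from RefSeq on GRCm38.p6, the C57BL/6J assembly, and are printed 5′ to 3′ on the gene's strand. Capitals mark GATA words (AGATAA or TGATAA or AGATAG or TGATAG) and ETS words (AGGAAG or CGGAAG) on either strand. CACCC-type words are not marked. Each motif was searched on its own, so a base can lie in matches of more than one.
Pf4 (chr5:90772185-90772434, plus strand): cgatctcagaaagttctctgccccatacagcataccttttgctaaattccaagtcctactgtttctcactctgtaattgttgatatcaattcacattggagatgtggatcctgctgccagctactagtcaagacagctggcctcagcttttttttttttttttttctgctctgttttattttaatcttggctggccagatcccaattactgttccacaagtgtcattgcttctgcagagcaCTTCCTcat
Gp5 (chr16:30310782-30311031, minus strand): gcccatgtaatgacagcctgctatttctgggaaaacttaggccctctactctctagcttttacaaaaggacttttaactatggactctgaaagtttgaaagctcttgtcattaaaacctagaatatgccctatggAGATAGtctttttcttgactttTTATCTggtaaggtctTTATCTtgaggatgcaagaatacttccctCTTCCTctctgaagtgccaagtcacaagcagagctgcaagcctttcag
Gp9 (chr6:87777820-87778069, plus strand): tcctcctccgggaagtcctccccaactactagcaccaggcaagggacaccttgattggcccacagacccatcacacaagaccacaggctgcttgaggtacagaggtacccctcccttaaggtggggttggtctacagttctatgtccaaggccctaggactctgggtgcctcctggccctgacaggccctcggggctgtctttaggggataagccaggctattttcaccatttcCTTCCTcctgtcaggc
Tubb1 (chr2:174450345-174450594, plus strand): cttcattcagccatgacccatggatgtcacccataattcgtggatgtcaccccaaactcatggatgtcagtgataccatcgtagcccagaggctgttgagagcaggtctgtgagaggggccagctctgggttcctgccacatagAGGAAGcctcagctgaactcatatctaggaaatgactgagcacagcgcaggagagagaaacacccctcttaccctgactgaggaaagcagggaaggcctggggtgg

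The Gp5 sequence held 3 GATA words and 1 ETS word, and those of Pf4, Gp9 and Tubb1 each held 1 ETS word and 0 GATA words. A promoter entry was found for 19 of the 26 measured genes and was not found for Fli1, Gng11, Itgb3, Rab27b, Rgs18, Thbs1 and Vwf. A GATA word occurred in 5 of 19, or 26.3%, against 26.5% of all 32851 promoters. An ETS word occurred in 11 of 19 (57.9%), against 39.2% of all. The CACCC-type word CCNCNCCC, on either strand, occurred in 9 of 19 (47.4%), against 45.9%. Pf4, whose product is platelet factor 4, lies next to Ppbp, another platelet chemokine gene, in the gene table. These matches describe letters only.

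With all arrays, the platelet genes tended to be higher in Klf8gt than in WT and varied widely among Klf8gt and DKO arrays, and none passed the test in any comparison. All 26 had a positive difference between Klf8gt and WT, with a median of 0.58 on the log2 scale (range 0.08 to 0.86), where the median over all clusters was -0.02. The hepatocyte markers had the same signs and like sizes, with 6 of 6 measured positive between Klf8gt and WT (median 0.51), 6 of 6 negative between DKO and Klf8gt (-0.52) and 6 of 6 negative for the interaction (-0.65), 0 of them past the threshold, and their part in the result was not tested. Between Klf3KO and WT, 20 of 26 differences were positive, with a median of 0.19. Between DKO and WT, 10 were positive and 16 negative, with a median of -0.07, a balance that turned on single arrays. DKO lay below Klf8gt for 23 of 26 (median -0.59) and below Klf3KO for 20 of 26 (median -0.30), and the interaction was negative for 24 of 26 (median -0.85). The comparisons share samples, so these counts are not independent of each other. The genes also moved together from array to array, as described below, so the genes behind a count are not separate observations.

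Several of these sizes rested on 1 array. Without DKO replicate 4, 4 of the 26 differences between DKO and WT were positive and 22 negative (median -0.29), and without Klf8gt replicate 1 and DKO replicate 1 together 17 were positive and 9 negative (median 0.05). The mean over the 26 genes differed by -0.01 between DKO and WT, by -0.26 without DKO replicate 4 and by 0.13 without DKO replicate 1. Between DKO and Klf3KO it differed by -0.22, and by -0.46 and -0.07 without the same arrays. Between Klf8gt and WT it differed by 0.51, by 0.82 without Klf8gt replicate 1 and by 0.32 without Klf8gt replicate 4, and between DKO and Klf8gt by -0.52, -0.83 and -0.33 in that order.

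By limma with Benjamini-Hochberg adjustment over all clusters at 0.05, 0 of 26 genes passed in each of the 6 comparisons. The share of all clusters that passed was 0% for Klf8gt against WT, 0.585% for Klf3KO against WT, 3.3% for DKO against WT, 0.047% for DKO against Klf3KO, 3.35% for DKO against Klf8gt and 0.00427% for the interaction. An unadjusted p under 0.05 was reached by 3, 0, 1, 1, 8 and 8 members in that order, against 13.4%, 7.83%, 17.9%, 12.9%, 18.7% and 14.4% of all clusters. With the replicate number as a block, 1 of 26 (F5) passed as lower in DKO than in Klf8gt, where 4.03% of all clusters passed, and 15 rather than 8 members had an unadjusted p under 0.05, against 20.2% of all clusters. The block covered all 15 arrays, and the labels do not pair arrays by number. Taken by number, the mean over the 26 genes was lower in DKO than in Klf8gt for 4 of 4 numbers. For replicate 1 the means were close, at 8.20 in DKO and 8.23 in Klf8gt. Standard errors, which pool the spread of all 4 groups, had a median of 0.34 over the platelet genes for groups of 4, whereas it was 0.11 over all clusters.

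**Figure D1:**
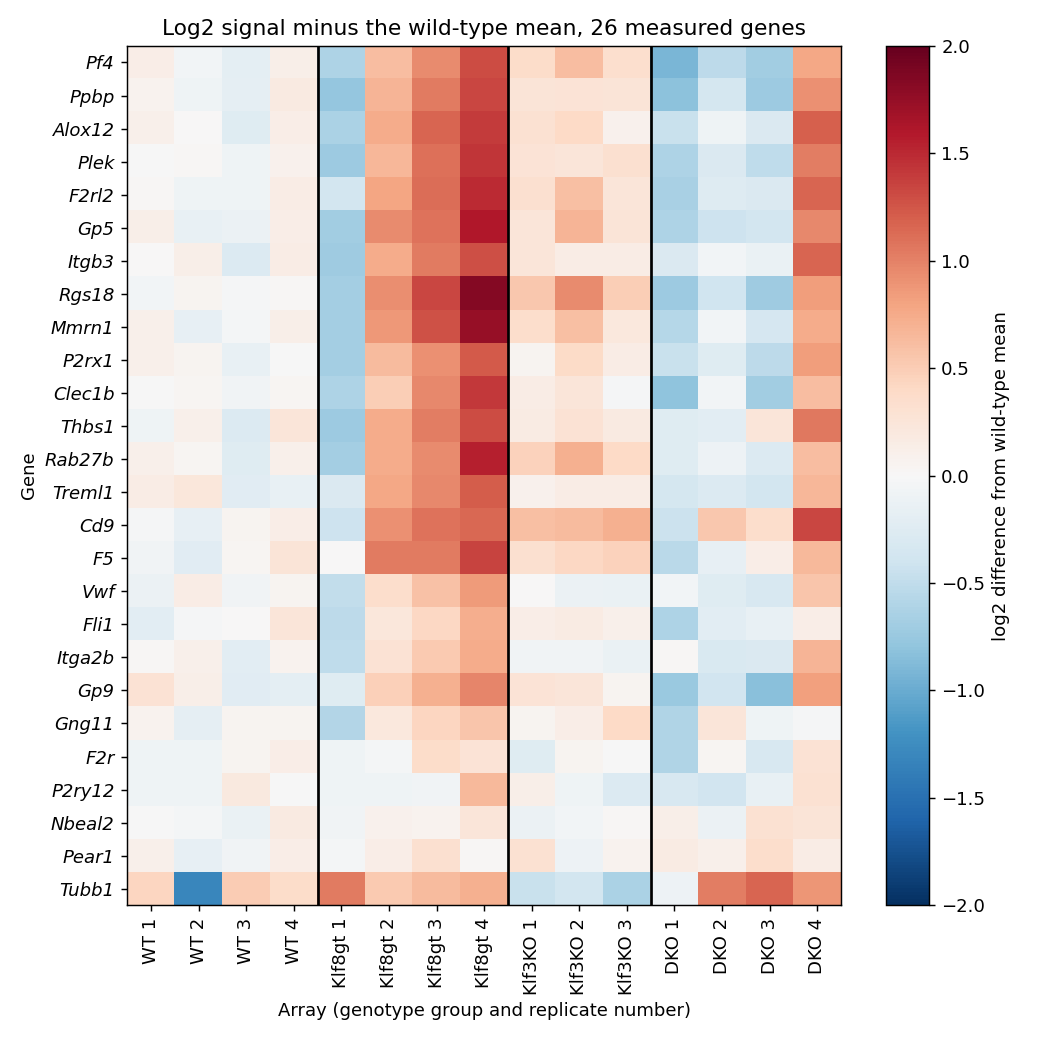
Heat map of the log2 signal minus the wild-type mean for the 26 measured genes (rows, ordered by their correlation with the mean of the others) in the 15 arrays (columns, by group and replicate number). Klf8gt replicates 2 to 4 and DKO replicate 4 are red for most genes and Klf8gt replicate 1 is blue for most, and Tubb1 in the last row follows another pattern.

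Platelet genes differed more between arrays of 1 genotype in Klf8gt and DKO than in WT and Klf3KO. The median SD of a gene was 0.14 among WT and 0.13 among Klf3KO arrays, but 0.77 among Klf8gt and 0.59 among DKO arrays. Over all clusters the median SD was 0.12 in WT, 0.10 in Klf3KO, 0.15 in Klf8gt and 0.17 in DKO. An SD above 0.5 was found for 21 of 26 genes in Klf8gt and 17 of 26 in DKO, against 1.44% and 4.6% of all clusters. In WT it was found for 1 gene, Tubb1, and in Klf3KO for 0. These SDs are given as a description, with no test of a difference between groups.

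The variation was shared between genes. Klf8gt replicate 1 was the lowest Klf8gt array for 25 of 26 genes and Klf8gt replicate 4 the highest for 23. DKO replicate 4 was the highest DKO array for 22 genes and DKO replicate 1 the lowest for 17. The mean over the 26 genes was 8.23, 9.20, 9.45 and 9.74 in Klf8gt replicates 1 to 4, and 8.20, 8.52, 8.43 and 9.36 in DKO replicates 1 to 4. In WT arrays it lay between 8.57 and 8.75, and in Klf3KO arrays between 8.79 and 8.92. Thus Klf8gt replicate 1 lay below every WT array and Klf8gt replicates 2 to 4 above every WT array, and DKO replicates 1 to 3 lay below and DKO replicate 4 above every WT array.

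Deviations from the group means over the 15 arrays correlated with a median Pearson r of 0.88 over 325 pairs of genes. For 20 of 26 genes the deviations had an r above 0.85 with the mean of the other genes, from 0.89 for Gp9 to 0.99 for Pf4 and Ppbp (Spearman's rho 0.77, 0.97 and 0.99). The 6 others were Gng11 (0.76), F2r (0.73), P2ry12 (0.64), Nbeal2 (0.52), Pear1 (0.16) and Tubb1 (-0.00). Without the 2 arrays farthest from the median, Klf8gt replicate 1 and DKO replicate 4, 13 genes kept an r above 0.85. All genes of an array share its RNA and hybridisation, so these correlations describe the arrays and carry no p.

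Adhesion receptors come first among the roles. Itga2b and Itgb3 encode the subunits of the platelet fibrinogen receptor. Itga2b (cluster 10391697) gave log2 signals of 9.53, 9.61, 9.30 and 9.57 in WT, 9.0, 9.79, 10.03 and 10.25 in Klf8gt, 9.43, 9.43 and 9.37 in Klf3KO and 9.53, 9.20, 9.22 and 10.18 in DKO. Its Klf8gt arrays lay on both sides of WT and its Klf3KO arrays lay within the WT range. The difference from WT was 0.26 ± 0.23 (SE) in Klf8gt (limma adjusted p = 0.626), -0.09 ± 0.25 in Klf3KO and 0.03 ± 0.23 in DKO. Itgb3 (cluster 10381809) read 9.53, 9.65, 9.26 and 9.68 in WT, 8.82, 10.28, 10.57 and 10.82 in Klf8gt, 9.77, 9.68 and 9.67 in Klf3KO and 9.24, 9.48, 9.39 and 10.70 in DKO. Klf8gt replicate 1 was the lowest of all arrays, and Klf8gt replicates 2 to 4 and DKO replicate 4 were above all others. Its difference was 0.59 ± 0.36 in Klf8gt (limma adjusted p = 0.479), 0.18 ± 0.39 in Klf3KO and 0.17 ± 0.36 in DKO.

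Gp5 and Gp9 encode subunits of the platelet receptor for von Willebrand factor. Gp5 (cluster 10438907) stood at 8.35, 8.08, 8.10 and 8.36 in WT, 7.54, 9.18, 9.31 and 9.82 in Klf8gt, 8.46, 8.91 and 8.49 in Klf3KO and 7.61, 7.81, 7.85 and 9.18 in DKO. Among the Klf8gt arrays the highest signal was 4.88-fold the lowest, and among WT arrays 1.22-fold. The Klf3KO arrays were all above the WT arrays. Gp5 differed from WT by 0.74 ± 0.40 in Klf8gt (limma adjusted p = 0.418), 0.39 ± 0.43 in Klf3KO (0.846) and -0.11 ± 0.40 in DKO (0.928). Gp9 (cluster 10539818) measured 8.93, 8.76, 8.41 and 8.44 in WT, 8.39, 9.11, 9.35 and 9.61 in Klf8gt, 8.91, 8.87 and 8.69 in Klf3KO and 7.89, 8.25, 7.80 and 9.45 in DKO. DKO replicates 1 to 3 lay below every WT array and DKO replicate 4 above every WT array. Its difference from WT was 0.48 ± 0.31 in Klf8gt (limma adjusted p = 0.499) and -0.29 ± 0.31 in DKO (0.696).

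Cd9 encodes a tetraspanin of the platelet membrane that many other cells carry too. Cd9 (cluster 10548030) signals were 9.29, 9.14, 9.35 and 9.43 in WT, 8.88, 10.22, 10.38 and 10.45 in Klf8gt, 9.91, 9.94 and 10.02 in Klf3KO and 8.88, 9.85, 9.65 and 10.64 in DKO. The 3 Klf3KO arrays were above all 4 WT arrays, and so were all Klf8gt and DKO arrays other than replicate 1 of each group. Its difference from WT was 0.68 ± 0.33 in Klf8gt (limma adjusted p = 0.386), 0.65 ± 0.36 in Klf3KO (0.7) and 0.45 ± 0.33 in DKO (0.528). Clec1b, the receptor for podoplanin, and Treml1, a receptor stored in alpha granules, had ranges of 8.23 to 8.34 and 8.40 to 8.85 in WT and of 7.68 to 9.71 and 8.33 to 9.84 in Klf8gt. Treml1 was 1 of the 3 genes with an unadjusted p under 0.05 between Klf8gt and WT (0.66 ± 0.28, limma adjusted p = 0.328). Pear1, a contact receptor of aggregating platelets, varied little, with group means of 6.71 to 6.91.

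**Figure D2:**
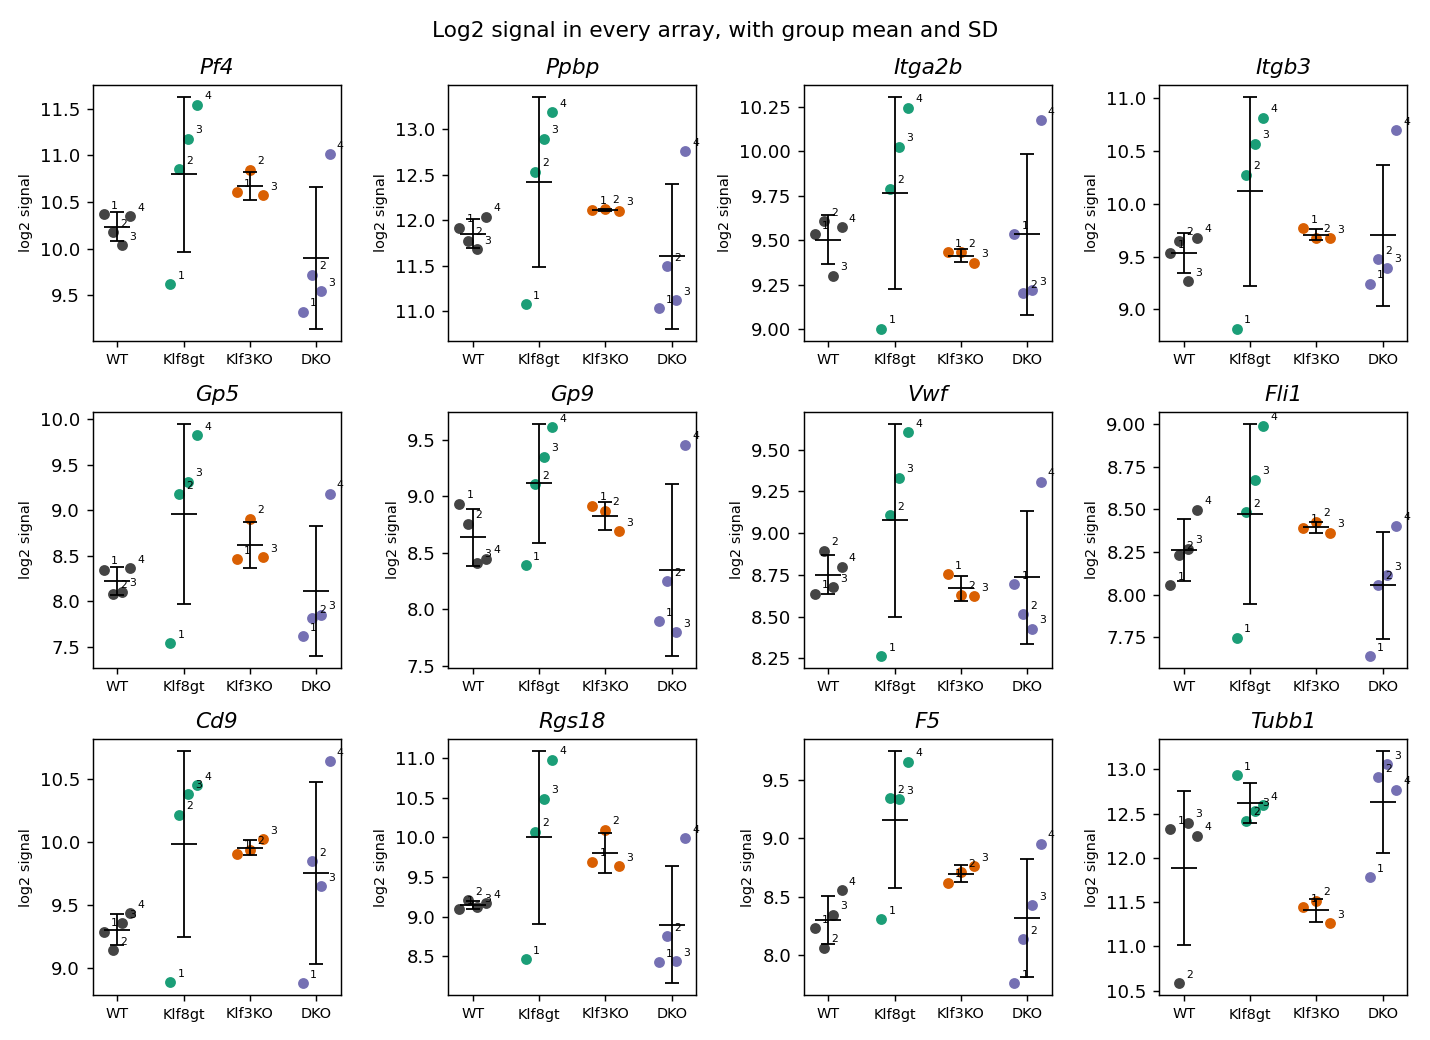
Log2 signal (vertical axis, a separate scale in each panel) of 12 genes in every array, by group; numbers beside points are replicate numbers, the horizontal line is the group mean and the bar its SD (n = 4, 3 for Klf3KO). Klf8gt replicate 1 is the lowest Klf8gt array in every panel but that of Tubb1, where it is the highest, and DKO replicate 4 is the highest DKO array in every panel but that of Tubb1.

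The secreted proteins held the chemokines Pf4 and Ppbp and the adhesive and clotting proteins Vwf, Thbs1, F5 and Mmrn1. Pf4 (cluster 10523134) gave signals of 10.37, 10.18, 10.04 and 10.34 in WT, 9.62, 10.85, 11.18 and 11.54 in Klf8gt, 10.61, 10.85 and 10.57 in Klf3KO and 9.32, 9.72, 9.54 and 11.01 in DKO. The WT arrays lay within 0.33 of each other, and Klf8gt spanned 1.93, or 3.80-fold. Ppbp (cluster 10523128) ran at 11.92, 11.77, 11.68 and 12.04 in WT, 11.08, 12.53, 12.90 and 13.18 in Klf8gt, 12.12, 12.13 and 12.11 in Klf3KO and 11.03, 11.49, 11.12 and 12.76 in DKO. The Klf3KO arrays of both chemokines were above all WT arrays, and DKO replicates 1 to 3 were below them. Pf4 differed from WT by 0.57 ± 0.36 in Klf8gt (limma adjusted p = 0.5), 0.44 ± 0.39 in Klf3KO (0.815) and -0.34 ± 0.36 in DKO (0.701). Ppbp differed by 0.57 ± 0.39, 0.26 ± 0.42 and -0.25 ± 0.39 in the same order.

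Vwf encodes von Willebrand factor, which endothelial cells make as well. Vwf (cluster 10541910) levels were 8.64, 8.89, 8.68 and 8.80 in WT, 8.26, 9.11, 9.33 and 9.61 in Klf8gt, 8.75, 8.63 and 8.62 in Klf3KO and 8.69, 8.51, 8.43 and 9.31 in DKO. Klf8gt replicate 1 was below and Klf8gt replicates 2 to 4 were above all WT arrays, and the difference from WT was 0.33 ± 0.23 (limma adjusted p = 0.537). F5, coagulation factor V (cluster 10351224), had 8.23, 8.07, 8.35 and 8.56 in WT, 8.31, 9.34, 9.34 and 9.65 in Klf8gt, 8.62, 8.71 and 8.76 in Klf3KO and 7.76, 8.13, 8.43 and 8.95 in DKO. F5 had the smallest p of the 26 in 3 comparisons. Its difference was 0.86 ± 0.26 between Klf8gt and WT (limma adjusted p = 0.251), -0.84 ± 0.26 between DKO and Klf8gt (0.0883) and -1.24 ± 0.38 for the interaction (0.201). With the replicate number as a block, F5 alone passed between DKO and Klf8gt (-0.84 ± 0.16, limma adjusted p = 0.0132, where 4.03% of all clusters passed). Mmrn1, the carrier of factor V in platelets, and Thbs1, thrombospondin, had Klf8gt ranges of 7.21 to 9.63 and 10.26 to 12.28, against 7.73 to 8.01 and 10.71 to 11.23 in WT.

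The agonist receptors were F2r and F2rl2, receptors of the thrombin receptor family, the ATP-gated channel P2rx1 and the ADP receptor P2ry12. Means of F2rl2 were 7.50 ± 0.11 in WT, 8.26 ± 0.80 in Klf8gt, 7.89 ± 0.19 in Klf3KO and 7.49 ± 0.80 in DKO (SD). P2rx1 averaged 7.23 ± 0.11, 7.75 ± 0.84, 7.42 ± 0.16 and 7.13 ± 0.63 in that order. Both spread in Klf8gt and DKO in the same way as the adhesion receptors. F2r varied less, at 9.11 to 9.34 in WT and 9.12 to 9.57 in Klf8gt. P2ry12 was dim, at 5.67 to 5.96 in WT and 5.38 to 6.08 in DKO.

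Among the signalling genes, Rgs18, a regulator of G protein signalling found in platelets (cluster 10358421), reached 9.09, 9.21, 9.12 and 9.17 in WT, 8.47, 10.07, 10.49 and 10.98 in Klf8gt, 9.69, 10.09 and 9.63 in Klf3KO and 8.43, 8.75, 8.44 and 9.99 in DKO. The WT arrays were within 0.11 of each other, the narrowest WT range among the 26, and the Klf8gt range of 2.51 was the widest. Its difference from WT was 0.85 ± 0.42 in Klf8gt (limma adjusted p = 0.39), 0.66 ± 0.46 in Klf3KO (0.764) and -0.25 ± 0.42 in DKO (0.83), and the interaction was -1.76 ± 0.62 (0.231). Plek, the protein kinase C substrate pleckstrin, averaged 9.96 ± 0.07 in WT, 10.58 ± 0.95 in Klf8gt, 10.24 ± 0.03 in Klf3KO and 9.86 ± 0.76 in DKO. Gng11, a G protein gamma subunit, was dim, with group means of 5.86 to 6.17.

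Alox12, the platelet lipoxygenase, averaged 8.52 ± 0.17 in WT and 9.19 ± 0.91 in Klf8gt. Rab27b, a small GTPase of granule secretion, ranged over 7.10 to 7.45 in WT, 6.66 to 8.90 in Klf8gt, 7.75 to 8.05 in Klf3KO and 7.07 to 7.96 in DKO. Nbeal2, required for alpha granules, stayed between 6.97 and 7.39 on all arrays. Fli1 (cluster 10592067), the transcription factor of the list, had signals of 8.05, 8.23, 8.27 and 8.50 in WT, 7.75, 8.48, 8.67 and 8.99 in Klf8gt, 8.39, 8.43 and 8.36 in Klf3KO and 7.64, 8.06, 8.11 and 8.40 in DKO. Fli1 spread as the others did but over a narrower span, and its differences from WT were 0.21 ± 0.21 in Klf8gt (limma adjusted p = 0.663), 0.13 ± 0.23 in Klf3KO (0.908) and -0.21 ± 0.21 in DKO (0.666).

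Tubb1 encodes the beta tubulin of the platelet marginal band. Tubb1 (cluster 10479154) showed 12.32, 10.58, 12.40 and 12.25 in WT, 12.94, 12.42, 12.53 and 12.60 in Klf8gt, 11.44, 11.52 and 11.26 in Klf3KO and 11.78, 12.91, 13.06 and 12.77 in DKO. WT replicate 2 was the lowest of all arrays, the Klf3KO arrays lay together between that array and the other WT arrays, and Klf8gt replicate 1, the lowest Klf8gt array for the other 25 genes, was the highest here. The Klf8gt arrays were all above the WT arrays and the DKO arrays all above the Klf3KO arrays, which held for 2.47% and 4.5% of all clusters. The differences were 0.73 ± 0.34 between Klf8gt and WT (limma adjusted p = 0.371), 0.74 ± 0.34 between DKO and WT (0.269) and 1.22 ± 0.37 between DKO and Klf3KO (0.182), and did not pass. Without WT replicate 2 the differences from WT were 0.30 in Klf8gt, 0.31 in DKO and -0.92 in Klf3KO, against -0.48 with all arrays in the last.

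The calls turned on Klf8gt replicate 1. Without it, 14 of 26 genes passed as higher in Klf8gt than in WT (limma), by 0.92 for P2rx1 to 1.37 for Rgs18 on the log2 scale, where 4.61% of all clusters passed as higher and 7.19% in either direction. They were Itgb3, Gp5, Clec1b, Treml1 and Cd9 of the adhesion receptors, Thbs1, F5 and Mmrn1 of the secreted proteins, F2rl2 and P2rx1, Plek and Rgs18, Alox12 and Rab27b. The Gp5 difference was then 1.21 ± 0.29 (limma adjusted p = 0.029), the Mmrn1 difference 1.29 ± 0.25 (0.015) and the Rgs18 difference 1.37 ± 0.30 (0.0233). Pf4 and Ppbp had 0.96 ± 0.30 and 1.02 ± 0.30 and did not pass (adjusted p = 0.063 and 0.0565). These counts describe the 3 other Klf8gt arrays and are no test of the genotype. With limma's array weights on all 15 arrays, 18 passed, where 17.4% of all clusters did.

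The same array bore on the comparison of DKO with Klf8gt and on the interaction. Without it, 14 genes passed as lower in DKO than in Klf8gt, by -0.61 for Vwf to -1.61 for Rgs18 (4.79% of all clusters passed as lower), and 7 passed with a negative interaction (2.41% of all). Without DKO replicate 4 in place of it, 7 passed as lower in DKO than in Klf8gt (5.13% of all), namely Pf4, Ppbp, Gp9, Treml1, F2rl2, F5 and Rgs18. Without Klf8gt replicate 1 and DKO replicate 1 together, 19 passed as higher in Klf8gt than in WT (8.47% of all) and 1, Cd9, as higher in DKO than in WT (5.1% of all). In the same fit 9 passed as lower in DKO than in Klf8gt (3.56% of all) and 6 with a negative interaction (2.7% of all). DKO replicate 4 was the highest DKO array for 22 genes, so leaving it out lowers the DKO means of those genes. All counts of this paragraph describe the arrays left in and are no test of the genotype.

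**Figure D3:**
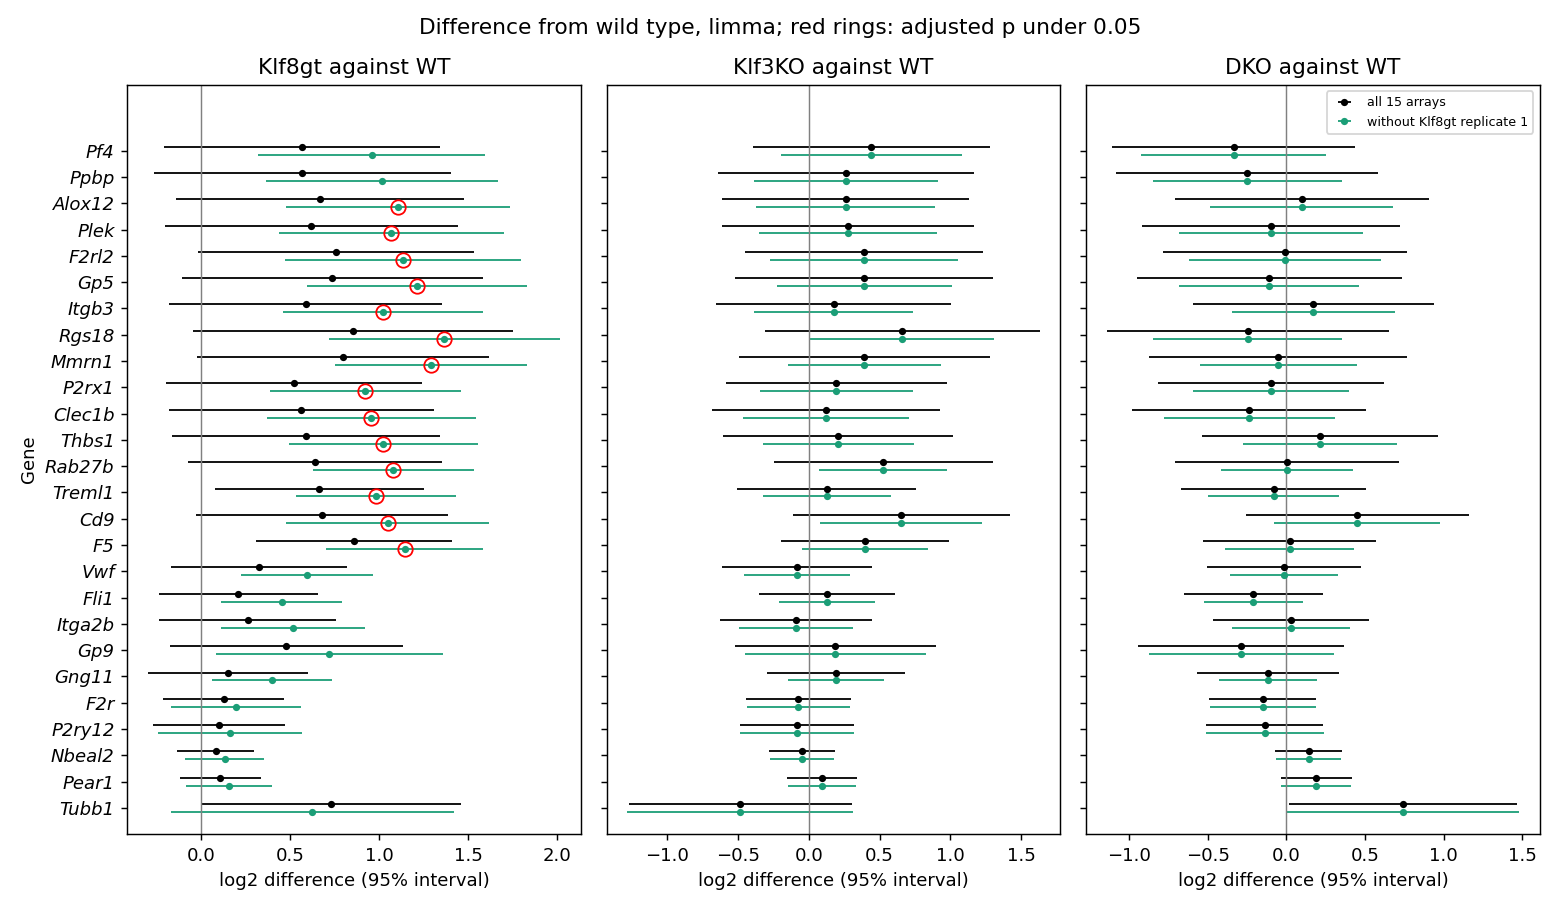
Difference from wild type on the log2 scale with its 95% interval for each of the 26 genes, in Klf8gt, Klf3KO and DKO, from limma with all 15 arrays (black) and without Klf8gt replicate 1 (green); red rings mark an adjusted p under 0.05. With all arrays 0 genes are ringed in any panel, and without Klf8gt replicate 1 there are 14 rings, all in the Klf8gt panel.

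Klf3KO arrays varied little, and there 10 of 26 genes had all arrays above all WT arrays, which held for 8.79% of all clusters (14.5% in either direction). These were Pf4, Ppbp, Gp5, Plek, F2rl2, F5, Rab27b, Mmrn1, Rgs18 and Cd9. In a fit of the Klf3KO and WT arrays alone, 3 passed as higher in Klf3KO (1.72% of all clusters passed as higher), namely Cd9 (0.65 ± 0.09, limma adjusted p = 0.00468), Rgs18 (0.66 ± 0.11, 0.0174) and Rab27b (0.53 ± 0.11, 0.0440). The same differences had standard errors of 0.36, 0.46 and 0.36 in the fit of all arrays, where the spread of all 4 groups is pooled.

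Markers of other cells moved with some of these arrays. In Klf8gt replicate 1, the hepatocyte list averaged 12.95 against 13.37 to 13.48 in Klf8gt replicates 2 to 4, the endothelial list 7.71 against 8.42 to 8.45, and the progenitor list 6.70 against 6.96 to 7.08. The erythroid list was 12.47 there and 12.35 to 12.46 in the others. In DKO replicate 4, the macrophage list was 9.11 against 7.36 to 8.31 in DKO replicates 1 to 3, and the granulocyte list 5.98 against 6.63 to 7.22. In DKO replicate 1, the hepatocyte list was 12.03 against 12.97 to 13.07 in the others, with 13.06 in DKO replicate 4. The macrophage (7.36), endothelial (7.77) and progenitor (6.60) lists were also lowest in DKO replicate 1 among DKO arrays. The granulocyte (7.22) and erythroid (12.54) lists were highest there. The mast cell and basophil list stayed between 4.88 and 5.20, near the lower quartiles of the arrays (4.92 to 5.01). None of these lists shares a gene with the 26. Their part in the result was not tested. A term for sex in the fit left 0 of 26 past the threshold in every comparison.

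**Figure D4:**
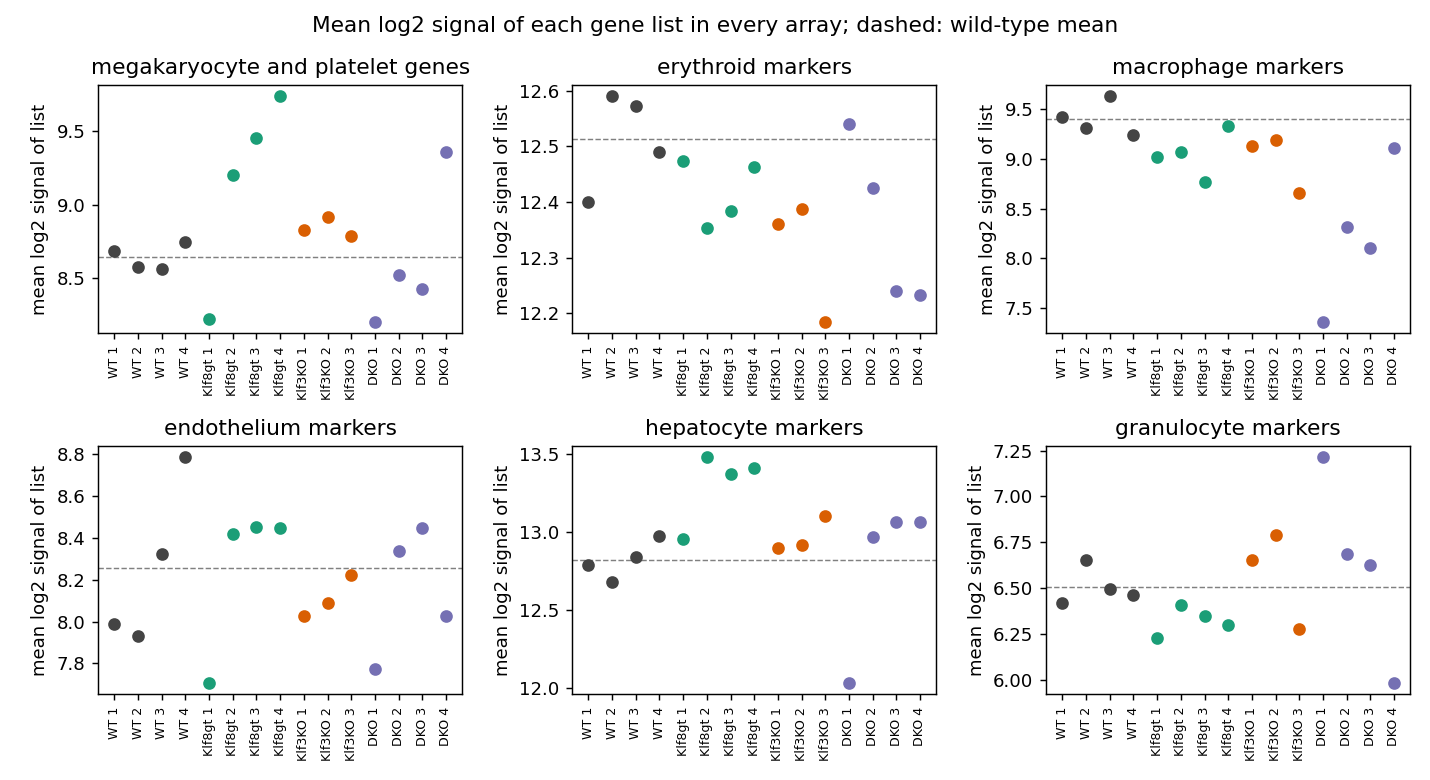
Mean log2 signal (vertical axis, a separate scale in each panel) of the 26 platelet genes and of 5 marker lists in each of the 15 arrays, coloured by group; the dashed line is the wild-type mean. The platelet genes span 8.23 to 9.74 among Klf8gt arrays and 8.20 to 9.36 among DKO arrays, whereas the erythroid markers stay between 12.18 and 12.59 on all arrays. Other lists spread widely among DKO arrays too: macrophage markers span 7.36 to 9.11, granulocyte markers 5.98 to 7.22 and hepatocyte markers 12.03 to 13.07.

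Other genes of megakaryocytes and platelets, outside the 31, were read from 4 lists with 92 of 99 genes measured. In DKO against WT, 1 rose and 4 fell, where 3.3% of all clusters passed. In DKO against Klf8gt 1 rose and 3 fell, where 3.35% of all passed, a share near that of the lists. In Klf3KO against WT 1 rose, where 0.585% of all passed, and in Klf8gt against WT, DKO against Klf3KO and the interaction 0 passed. Of 16 further transcription factors, Nfe2, a regulator of platelet release, fell by 0.61 ± 0.14 in DKO against WT (limma adjusted p = 0.0283), and Mecom, a factor of early megakaryocyte and stem cells, fell by 0.73 ± 0.17 (0.0258). Most erythroid markers lay lower too, with 11 of 13 differences negative between DKO and WT (median -0.31) and Hemgn (-0.50 ± 0.11, limma adjusted p = 0.0234) and Klf1 (-0.41 ± 0.11, 0.0487) past the threshold, and their part in the result was not tested. The second Mecom cluster differed by -0.14 and did not pass (0.467). Gata1, Runx1, Tal1 and the other factors of the list did not pass in any comparison.

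Of 36 measured receptors and signalling genes, Cd36, a scavenger receptor of platelets and macrophages, fell by 1.21 ± 0.26 in DKO against WT (limma adjusted p = 0.0185), beside macrophage markers that were lower there for 15 of 15 (median -1.17), 6 of them past the threshold. Of 24 granule and secretion genes, Unc13d, a priming factor of granule release, rose by 0.97 ± 0.16 in Klf3KO (limma adjusted p = 0.00867) and by 0.96 ± 0.15 in DKO (0.00191), and Vamp8, a granule fusion protein, fell by 0.66 ± 0.16 in DKO (0.0335). Mean Unc13d signals were 7.47 ± 0.11 in WT, 7.50 ± 0.09 in Klf8gt, 8.44 ± 0.23 in Klf3KO and 8.43 ± 0.38 in DKO (SD). Every Klf3KO and DKO array was above every WT and Klf8gt array. Of 16 cytoskeletal and eicosanoid genes, Tbxas1, thromboxane synthase, fell by 0.81 ± 0.21 in DKO against Klf8gt (limma adjusted p = 0.0435). Against Klf8gt, Mecom also fell by 0.83 ± 0.17 (0.0131) and Cd36 by 1.08 ± 0.26 (0.0354), and Unc13d rose by 0.93 ± 0.15 (0.00293). Macrophage markers were lower in DKO than in Klf8gt for 15 of 15 (median -0.79), and Cd5l, Marco and Vcam1 passed. Among DKO arrays, the macrophage list was highest in replicate 4 (9.11). In that array Cd36 (7.44) and Mecom (5.52) were the lowest of the DKO arrays, and Tbxas1 (7.87) was the highest. The part of the macrophage markers in the falls named here was not tested.

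Most of these calls lay close to the threshold. In DKO against WT, Unc13d passed under 25 of 25 alternative settings, Cd36 under 20, Nfe2 under 18, and Mecom and Vamp8 under 17 each. A term for sex, fitted because all WT arrays were from males, ended all 4 falls (limma adjusted p = 0.0613 for Cd36, 0.0803 for Nfe2, 0.0854 for Mecom and 0.0845 for Vamp8), and so did a fit of the DKO and WT arrays alone (0.0742 to 0.114). Leaving out 1 array ended the Cd36 call for WT 2, WT 3 or DKO 3 (limma adjusted p = 0.0515 to 0.0781), and the Nfe2 call for WT 1, WT 2, WT 3 or DKO 3 (0.0700 to 0.0958). It ended the Mecom call for WT 3, WT 4, DKO 3 or DKO 4 (0.0536 to 0.0820), and the Vamp8 call for WT 1, WT 2, WT 3, DKO 3 or DKO 4 (0.0663 to 0.113). The Unc13d call in Klf3KO passed under 23 of 25 settings and ended without Klf3KO 1 or Klf3KO 2 (0.0854 and 0.0718). In DKO against Klf8gt, Unc13d passed under 26 of 26 settings and Mecom under 24, and every omission of 1 array left both past the threshold. A fit of the DKO and Klf8gt arrays alone ended the Mecom, Cd36 and Tbxas1 calls (limma adjusted p = 0.100, 0.150 and 0.197). The Cd36 call there ended without WT 2, Klf8gt 2, Klf8gt 3, Klf8gt 4, Klf3KO 1, DKO 1, DKO 3 or DKO 4 (0.0504 to 0.119), and the Tbxas1 call under 12 of 15 omissions, those of Klf8gt 1, Klf3KO 3 and DKO 4 being the exceptions (limma adjusted p = 0.0509 to 0.142).

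The 10 named genes outside the list whose deviations from group means were most like the mean of the 26, over 15 arrays, were P2ry1, Aqr, Cd226, Rsu1, Prkcq, Slc6a4, Timp3, Mpig6b, Slain2 and Zyx, with a Pearson r of 0.97 to 0.99 (Spearman's rho 0.87 to 0.95) and of 0.92 to 0.97 without Klf8gt replicate 1 and DKO replicate 4. P2ry1, an ADP receptor, had the highest r, and with Cd226 and the platelet receptor gene Mpig6b it was among 3 of the 10 that the further platelet lists hold. Slc6a4, the serotonin transporter, ranged over 2.06 log2 units in Klf8gt and 0.63 in WT arrays. Aqr, a helicase of the spliceosome, had the smallest Klf8gt range of the 10, 0.49.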

How the data were processed

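Gene expression was measured on 15 Affymetrix arrays, 1 per sample. The deposited values are log2 signals without a detection call. The submitters' processing notes name the tools RMA and Partek with no version, and for the array design's genome build the sources used here give none. Of 35556 transcript clusters, 21789 name 1 gene in the platform annotation, 1621 name several and 12146 name none. The gene identifiers of 26 of 26 measured genes matched the table of GRCm38.p6, and 0 symbols changed. All 15 columns belonged to the samples, 0 were left unmapped, and no 2 arrays held identical values.

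Group means were fitted with limma 3.58.1 in R 4.3.3 over the 15 arrays and the 23410 clusters that have a symbol, with eBayes and no trend (prior degrees of freedom 4.27). All 6 contrasts were two-sided, with Benjamini-Hochberg adjustment over all clusters and a threshold of 0.05, and intervals are 95% intervals. The procedure was tested on simulated data. The number of arrays limits the precision. The members, lists and comparisons were chosen with earlier results of these data known, and the 4 further platelet lists and the marker lists were written by name.

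All 26 genes are accounted for. Values in every array are given for those past the threshold (0) and for Pf4, Itga2b, Gp9, Gp5, Ppbp, Vwf, Itgb3, Fli1 and Cd9, and Tubb1, F5 and Rgs18 were added after their values were seen. Of the further lists, every gene past the threshold in a mutant group against WT is named, and Tbxas1 was added after its values were seen. The 10 most like genes were ranked by Pearson's r of deviations from group means, leaving out predicted genes and Riken clones.

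The labels do not pair arrays by number. Deviations of same-numbered DKO and Klf8gt arrays correlated positively over all clusters for 4 of 4 pairs. The r was 0.53 for replicate 1 and 0.11 to 0.18 for replicates 2 to 4. Same-numbered Klf3KO and DKO arrays gave 0.07 to 0.16, and replicate 3 of Klf8gt and Klf3KO gave 0.30. For WT and Klf8gt arrays it was -0.28 to 0.13. These values do not single out the DKO and Klf8gt numbers as pairs. The main fit had no block. The replicate block was an alternative fit that grouped the arrays of every group by number, WT and Klf3KO included. A block of the DKO and Klf8gt arrays alone was a separate fit, chosen after seeing the data. Sex was read from the Xist signal, with a dividing level of 8. Alternatives were the scaling, the variance trend, the clusters tested, array weights, a term for sex, the replicate block, only the groups compared, and leaving out each array.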

Additional observations from a re-analysis of the deposited data

Results flagged for a closer look

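Of 81 groups of 4 arrays examined for the 26 genes and their mean, 7 had 1 array far from the others. About 1 in 20 such groups would be found by chance, and the genes move together, so these are not separate events. In DKO, replicate 4 stood above the others for Itgb3 (10.70, the next at 9.48), Gp5 (9.18, the next at 7.85) and Treml1 (9.29, the next at 8.35). In Klf8gt, replicate 1 stood below for Cd9 (8.88, the next at 10.22), and replicate 4 stood above for the dim P2ry12 (6.41, the next at 5.69). In WT, replicate 2 stood below for Tubb1 (10.58, the next at 12.25) and for the dim Gng11 (5.81, the next at 6.03).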

How the results depend on the processing

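None of the calls named in the text (those of the further platelet genes) turned direction under any setting run. Leaving out 1 array at a time gave 0 to 14 genes past the threshold for Klf8gt against WT and for DKO against Klf8gt. The 14 in each came without Klf8gt replicate 1, where 7.19% and 7.44% of all clusters passed. Without DKO replicate 4, 7 passed in DKO against Klf8gt, where 7.59% of all clusters did. The interaction gave 0 to 7, the 7 without Klf8gt replicate 1 (3.07% of all clusters). Klf3KO against WT, DKO against WT and DKO against Klf3KO gave 0 throughout. Array weights gave 18, 12 and 12 for Klf8gt against WT, DKO against Klf8gt and the interaction, where 17.4%, 5.47% and 5.05% of all clusters passed. Without Klf8gt replicate 1 and DKO replicate 1 together, the counts were 19 for Klf8gt against WT, 1 for DKO against WT, 9 for DKO against Klf8gt and 6 for the interaction. Of all clusters, 12.5%, 9.65%, 5.32% and 3.19% passed in that order. With only the arrays of both groups, 3 genes passed in Klf3KO against WT, where 2.05% of all clusters passed. In the 4 other comparisons of groups 0 genes passed, and the interaction could not be fitted that way. The cause of these changes was not tested beyond the arrays left out.

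With the replicate block, 1 gene (F5) passed in DKO against Klf8gt, also when only the DKO and Klf8gt arrays were fitted (1, where 2.96% of all clusters passed), a fit chosen after seeing the data. The block moved the Klf3KO against WT difference of the mean over the 26 genes from 0.20 to 0.36 and changed no other count of members. The other settings (centring each array, quantile normalization over again, a variance trend, all clusters of the table, only brighter clusters, a term for sex) left 0 genes past the threshold in each comparison. Averaging the clusters of a gene was not run, because each measured gene has 1. Signal limits Gng11 and P2ry12, which lay below the array medians.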
